A study of Rattus norvegicus with 30 samples.

Results

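The comparison described here set rat hepatocyte cultures exposed to 250 µM dioctyl phthalate for 48 h against vehicle cultures of the same age. It comprised 5 treated arrays and 5 vehicle arrays, chosen by their sample labels, out of 30 arrays in all. The cells were purchased, frozen primary hepatocytes of male Sprague Dawley rats, thawed and grown on collagen under Matrigel, and they received the chemical on day 3 of culture. All cultures, vehicle included, contained 1% DMSO. The study also held 250 µM and vehicle cultures at 24 h and 1000 µM cultures at both times, with 5 arrays in each of its 6 groups. Each array came from its own culture well. How many animals or vials supplied the cells is not stated in the labels, so the p-values below measure the spread between wells. The labels do not name the octyl isomer of the phthalate. Total RNA was hybridised to single-colour rat expression arrays, and values are log2(signal + 1) of deposited intensities. A gene was represented by 1 probe set, and 10528 genes were tested after the probe sets of lowest signal had been left out.

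Phthalate esters of this kind are plasticisers whose monoester metabolites can activate PPARα, a nuclear receptor that responds to fatty acids in the liver. PPARα pairs with RXR on DNA and raises the genes of fatty acid uptake, activation and oxidation in mitochondria, peroxisomes and microsomes, and rodent liver is known for the strength of this response. Ligands of PPARα are also known to lower acute phase and other inflammatory genes in hepatocytes. Related nuclear receptors, CAR and PXR, govern many drug-metabolising enzymes, and cultured hepatocytes on a rigid surface are known to take up cytoskeletal and matrix genes over time.

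The vehicle arrays were not alike in the beta-actin 3'/5' ratio, which compares probe sets at the 2 ends of the beta-actin transcript and rises when cDNA synthesis does not reach the 5' end. Vehicle replicates 1 to 5 had log2 ratios of 2.44, 1.74, 1.70, 1.04 and 1.66. The treated arrays had 1.39, 0.98, 1.19, 1.15 and 1.06. Vehicle replicate 4 thus lay inside the treated range, and the other 4 vehicle arrays lay above all treated arrays. The means were 1.72 ± 0.49 and 1.15 ± 0.16 (SD, n = 5 each), with p = 0.040 in an exact two-sided permutation test and 0.060 after adjustment over 3 such checks. The Gapdh ratio moved the same way, at 0.22 ± 0.05 and 0.13 ± 0.04 (exact permutation p = 0.024, adjusted 0.060), while the array medians were 8.57 in both groups (exact permutation p = 0.97). Since this ratio moved with the groups, a count below that names no other fit is from the fit to all arrays. Many counts are also given as the number called in each of 3 fits. These are the fit itself, a fit with the beta-actin ratio as a covariate, and a fit with vehicle replicate 4 as the lone 48 h vehicle array, assumed to vary like the other groups.

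**Figure D1:**
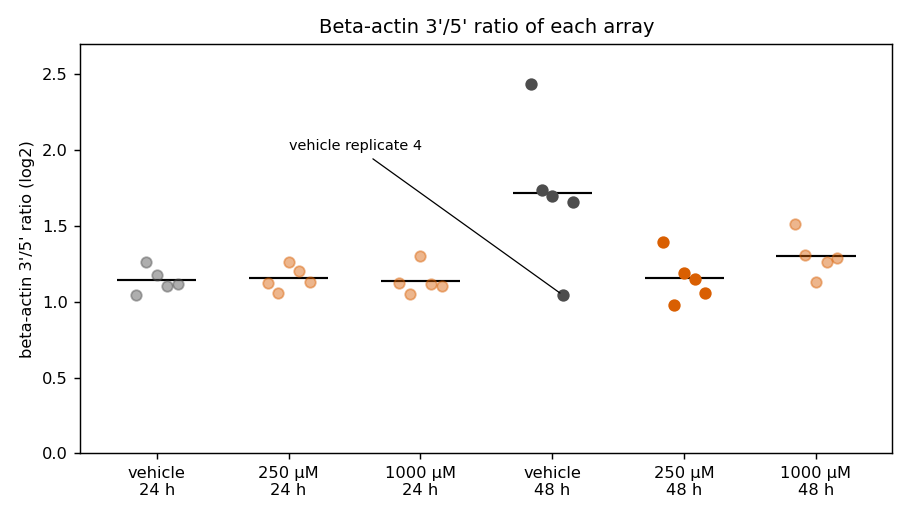
Beta-actin 3'/5' ratio (log2, y axis) of each of the 30 arrays by group (x axis), 1 point per array, with the group mean as a line. The 48 h vehicle arrays span 1.04 to 2.44, and vehicle replicate 4 alone lies among the treated arrays.

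Defining hepatocyte markers were strong in both groups. Albumin (Alb) stood at 15.94 ± 0.14 in vehicle and 16.03 ± 0.17 in treated cultures (adjusted p = 0.55 by limma), and 6 of 6 hepatocyte markers with a probe set lay above the low-signal limit of 7.88 in both groups. Of the markers of other liver cells, those with means at or above the limit in both groups were 4 of 7 for stellate cells, 3 of 5 for Kupffer cells, 1 of 4 for endothelial cells and 1 of 3 for cholangiocytes. The one cholangiocyte marker above it, Epcam, read 13.68 ± 0.12 in vehicle and 13.60 ± 0.07 in treated cultures.

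Differences were widespread. Of the 10528 genes, 4342 (41.2%) were called at 48 h, meaning an adjusted p under 0.05 by limma. Of these, 1604 genes (15.2%) rose and 2738 (26%) fell. At least 2-fold changes were found for 153 genes that rose and 157 that fell, and at least 4-fold changes for 19 and 5. All treated arrays lay above all vehicle arrays for 1075 genes (10.2%) and below them for 1587 (15.1%). In each of the 3 fits 593 genes (5.63%) rose and 616 (5.85%) fell. Large differences held more often: 239 of the 310 genes called with at least a 2-fold change were called in all 3 fits. The count was 458 of the 2663 called with a log2 difference under 0.5. A fit with 1 vehicle array loses small differences more readily whichever array is kept, and the part of RNA quality in this contrast was not tested. Totals with each other vehicle array kept alone are given below, with the dependence on processing. With vehicle replicate 4 alone the called total was 1380.

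Vehicle replicate 4 was the vehicle array closest to the treated mean for 737 of the 1604 genes that rose and 1552 of the 2738 that fell. Genes that rose had a median difference of 0.42 against the other 4 vehicle arrays and 0.30 against replicate 4. For genes that fell the medians were -0.49 and -0.30. Even so, replicate 4 lay outside the treated range, on the side of the other vehicle arrays, for 1238 of the genes that rose and 1841 of those that fell. What part RNA quality plays in the small differences was not tested.

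**Figure D2:**
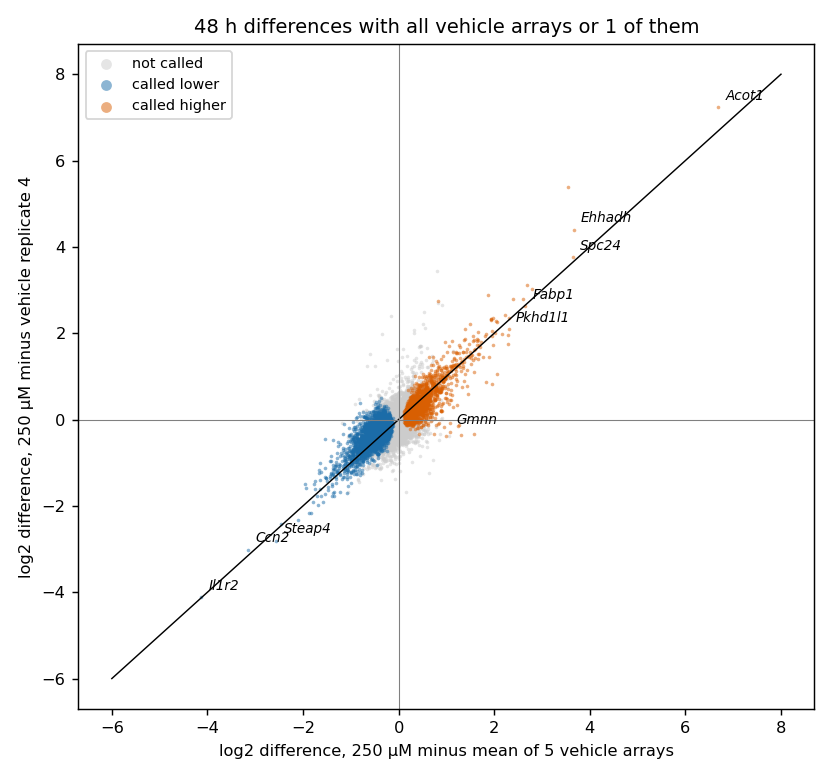
Log2 difference at 48 h against the mean of the 5 vehicle arrays (x axis) and against vehicle replicate 4 alone (y axis), 1 point per gene, with the line of equality. Genes with large differences, such as Acot1 (6.68 and 7.23) and Ccn2 (-3.15 and -3.01), lie near the line.

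The 10 largest rises with both group means above the low-signal limit were those of Acot1, Ehhadh, Spc24, Pdk4, Fabp1, Lrrc39, Cpt1b, Slc6a13, Hilpda and Cyp4a1, a set that holds enzymes of fatty acid oxidation and genes of other roles. The third of these, the kinetochore subunit Spc24, rose by 3.64 on the log2 scale. Acot1, a cytosolic thioesterase that splits acyl-CoA, read 9.31, 8.80, 8.37, 7.66 and 6.87 on vehicle replicates 1 to 5 and 14.82, 14.92, 14.97, 14.84 and 14.88 on the treated arrays. The treated arrays were tightly grouped and far above a scattered vehicle group, 2 of whose arrays lay under the low-signal limit. The log2 difference was 6.68 ± 0.24 (SE; limma adjusted p = 4.65e-21), a 103-fold rise. Ehhadh, the peroxisomal bifunctional enzyme of beta-oxidation, read 12.13, 11.62, 11.16, 10.74 and 11.71 in vehicle and 15.23, 15.00, 15.17, 15.08 and 15.19 after treatment, a 12.7-fold rise (limma adjusted p = 2.4e-20). Pdk4, the kinase that shuts off pyruvate dehydrogenase when fat is burned, read 12.62, 12.44, 12.24, 11.83 and 12.16 against 14.91, 15.10, 14.93, 14.86 and 14.93. Its log2 difference was 2.69 ± 0.12 (limma adjusted p = 1.07e-18). In these 3 genes, and in the carnitine palmitoyltransferases Cpt1a and Cpt1b, vehicle replicate 4 lay below the vehicle mean. The rises were therefore larger against it: 4.40 for Ehhadh, 3.12 for Pdk4, 2.79 in place of 2.39 for Cpt1b and 1.56 in place of 1.01 for Cpt1a.

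The peroxisomal beta-oxidation list had 23 tested members, of which 22 rose, 17 of them in all 3 fits, with a median difference of 0.99 against -0.07 over all genes. Its members beyond Ehhadh ranged down to Pex6, a peroxisome import factor, at 0.13 (not called). Crat and Crot, the carnitine acyltransferases that pass shortened chains to mitochondria, rose by 1.67 and 1.28 on the log2 scale. Of the 23 tested mitochondrial beta-oxidation and ketogenesis genes, 22 also rose, 21 in all 3 fits, with a median of 0.96. Acyl-CoA thioesterases rose as well: 8 of 10 rose, all 8 in all 3 fits, with a median of 1.60. Acot12 rose by 1.97. Acot9 was called lower in the fit to all arrays (-0.16) but not with array medians centred or with the covariate. In the wider PPARα list of lipid handling 26 of 38 rose and 4 fell, and 24 and 3 did so in all 3 fits. Its falling members were Lpin1 (-1.44), a phosphatidate phosphatase and coactivator, Acsl4 (-0.57), the coactivator Ppargc1a (-0.43) and the bile acid and fatty acid ligase Slc27a5 (-0.36). These lists were drawn up with results of the same arrays known, so their direction is not independent evidence.

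**Figure D3:**
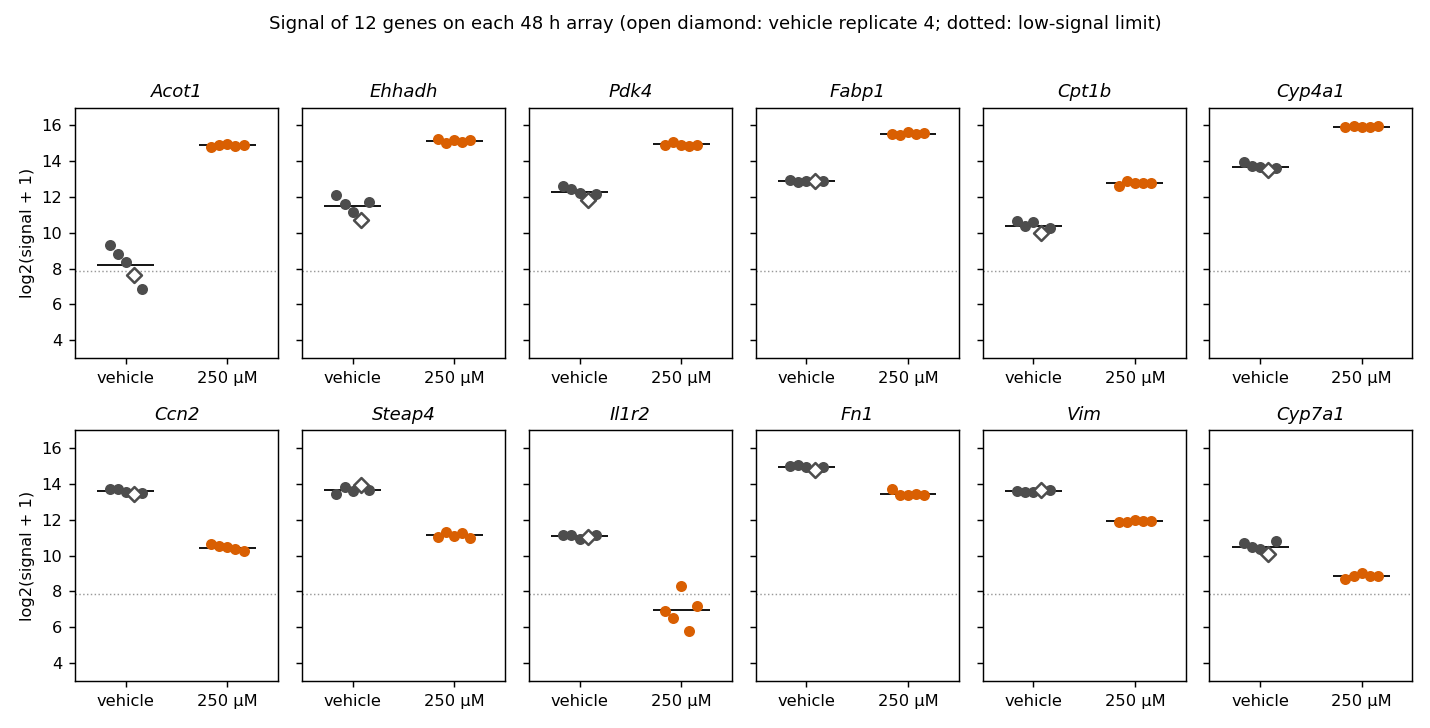
Log2(signal + 1) (y axis) of 12 genes on each vehicle and 250 µM array at 48 h, 1 point per array, with group means as lines, vehicle replicate 4 as an open diamond and the low-signal limit (7.88) dotted. In all 12 genes the treated arrays stand apart from the vehicle arrays.

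Fabp1, the liver fatty acid binding protein, had little spread. Its vehicle arrays read 12.97, 12.86, 12.88, 12.91 and 12.87, and its treated arrays 15.52, 15.45, 15.63, 15.53 and 15.57. Neither group spread by more than a small part of the gap, and vehicle replicate 4 did not stand out. The log2 difference of 2.64 ± 0.05 (limma adjusted p = 1.68e-28) was 2.63 against replicate 4. Cyp4a1, a microsomal omega-hydroxylase of fatty acids, read 13.94, 13.76, 13.69, 13.53 and 13.61 against 15.92, 15.98, 15.90, 15.91 and 15.99, a 4.71-fold rise (limma adjusted p = 7.69e-21). Hilpda, a lipid droplet protein that inhibits lipolysis, rose by 2.29, and Slc6a13, a transporter of GABA and taurine, by 2.31. Lrrc39, a leucine-rich repeat protein, rose by 2.60. Fabp3, the heart-type binding protein, lay under the limit in vehicle (7.56 ± 0.77) and at 10.36 ± 0.26 after treatment. Another 2 genes rose from under the limit: Pkhd1l1 by 2.25 and the kinase Nim1k by 1.98, both measured from the limit.

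Fabp1 is a textbook PPARα target, and its promoter is shown because it carries the site arrangement the PPARα and RXR pair recognises, a direct repeat of AGGNCA with 1 base between the copies. HNF4A and other nuclear receptors bind the same arrangement. RefSeq promoter windows (GRCr8), from 250 bases before to 50 bases after the start, were searched on both strands. The repeat was present in 139 of 33469 windows (0.415%). It was found in 10 of 1459 windows of genes that rose, 6 of 2512 of genes that fell and 21 of 5874 of genes not called. A gene can have several windows. Of the 10, 5 had it in the last 100 bases before the start, and 4 of these are printed, chosen after their values were seen, with the repeat in capitals on the gene's strand.
Fabp1: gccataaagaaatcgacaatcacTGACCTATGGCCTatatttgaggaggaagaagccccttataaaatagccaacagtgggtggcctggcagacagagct
Pdzk1: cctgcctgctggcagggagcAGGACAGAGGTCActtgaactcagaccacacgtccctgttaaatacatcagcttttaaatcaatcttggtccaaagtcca
Cyp2d3: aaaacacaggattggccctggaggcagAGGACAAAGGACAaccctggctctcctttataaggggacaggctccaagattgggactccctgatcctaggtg
Gys2: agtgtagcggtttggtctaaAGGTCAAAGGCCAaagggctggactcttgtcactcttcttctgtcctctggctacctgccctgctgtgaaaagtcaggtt
They lie at chr4:104749240-104749339 (plus strand), chr2:187064895-187064994 (plus strand), chr7:115802143-115802242 (minus strand) and chr4:177137237-177137336 (minus strand). The repeat began 77, 80, 73 and 80 bases before the start, and in Fabp1 it reads on the opposite strand. Pdzk1, a scaffold of the HDL receptor, rose from 10.91 ± 0.28 to 12.46 ± 0.09 (n = 5 each), Cyp2d3 from 12.97 ± 0.11 to 13.71 ± 0.06, and the glycogen synthase Gys2 from 13.11 ± 0.12 to 13.62 ± 0.08. Most lead genes lack the repeat in this window. A match describes letters and not binding.

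Of 22 tested fatty acid and triglyceride synthesis genes, 12 rose and 6 fell, and 9 and 2 did so in all 3 fits. The desaturases Fads1 and Fads2 rose by 1.37 and 1.28, the elongase Elovl6 by 0.97 and the final triglyceride-forming enzyme Dgat1 by 0.83, while the desaturase Scd (0.12) and the elongases Elovl2 (0.08) and Elovl5 (0.11) were not called. Pklr, the liver pyruvate kinase, fell by 0.81, and Acaca, which makes malonyl-CoA, fell by 0.65. Fasn, the fatty acid synthase, depended on the vehicle arrays. It read 13.02, 12.60, 12.64, 12.19 and 12.65 in vehicle and 12.48, 12.03, 12.28, 11.98 and 12.22 after treatment, with overlapping ranges. Its difference of -0.42 was called (limma adjusted p = 0.0045), but against vehicle replicate 4 it was 0.00. In cholesterol synthesis 9 of 21 rose and 2 fell. The 5 called higher in all 3 fits included Hsd17b7 (0.61), which reduces a keto group late in the pathway, and Insig1 (0.44), which retains the sterol sensor, while the regulator Srebf2 fell by 0.47 in the fit to all arrays. Among lipoprotein genes Apoa5, an activator of triglyceride clearance, fell from 13.69 ± 0.10 to 12.15 ± 0.09 (n = 5 each), and Mttp, which loads lipid onto apolipoprotein B, rose by 0.71. In that list 3 of 19 rose (15.8%) and 5 fell (26.3%), close to the 15.2% and 26% over all genes. Apob (0.06), Apoa1 (0.08) and Apoe (0.02) were not called.

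Among bile acid genes 52.4% fell and 23.8% rose, against 26% and 15.2% over all genes. Cyp7a1, the enzyme that sets the rate at which cholesterol is turned into bile acids, read 10.68, 10.48, 10.38, 10.07 and 10.80 in vehicle and 8.70, 8.84, 9.04, 8.87 and 8.85 after treatment. The groups did not overlap, and the fold was 3.07 (limma adjusted p = 5.65e-12). Cyp27a1, of the alternative route, fell by 0.78, and the export pump Abcc2 fell by 0.83. Over the list 11 of 21 fell and 5 rose, 6 and 3 in all 3 fits. The median was -0.36, against -0.16 with the covariate and -0.21 against vehicle replicate 4. The risers were the sterol transporter Abcg5 (1.65), the bile acid receptor Nr1h4 (0.70), Cyp8b1 (0.58), the conjugating enzyme Baat (0.42) and the uptake carrier Slc10a1 (0.36). In the uptake carriers of the other family, Slco1a1, Slco1a4 and Slco1b2, the differences were -0.94, -0.56 and -0.55, all called, with Slco1b2 alone called in all 3 fits.

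In glucose metabolism 2 gluconeogenic enzymes rose while most of the list fell. Pck1 went from 9.90 ± 0.53 to 11.56 ± 0.15 and Fbp1 from 14.32 ± 0.08 to 15.02 ± 0.07 (n = 5 each), and with Gys2 they were the only 3 of 18 that rose. Pck2, the mitochondrial form of Pck1, and the glucose 6-phosphate carrier Slc37a4 were called lower (-0.59 and -0.21), though not in all 3 fits, and pyruvate carboxylase (Pc, 0.18) was not called. In all, 11 of the 18 fell, 3 of them in all 3 fits: the tyrosine aminotransferase Tat (-0.89), Igfbp1 (-0.59) and the glucose transporter Slc2a2 (-0.32). The transcription factor Foxo1 (-0.93) and the kinase Pfkfb3 (-0.98) were not called in every fit. Amino acid genes were divided, with 11 of 33 higher (33.3%) and 10 lower (30.3%), and 8 and 4 in all 3 fits. Over all genes 15.2% were higher and 26% lower. Hgd, of tyrosine breakdown, rose by 0.94 and Kynu, of tryptophan breakdown, by 0.72, while the proline dehydrogenase Prodh fell by 1.24 and the urea cycle enzyme Ass1 by 0.79. Cps1 (-0.12) and Otc (-0.07), which open the urea cycle, were not called.

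Drug-metabolising genes linked to CAR and PXR rose more often than they fell, 17 against 5 of 31, and 13 against 2 in all 3 fits. Cyp3a2 read 10.47, 10.61, 10.26, 10.34 and 10.82 in vehicle and 12.33, 12.29, 12.39, 12.26 and 12.34 after treatment. That 3.54-fold rise (limma adjusted p = 6.68e-18) was 1.99 on the log2 scale against vehicle replicate 4. Sult2a6, a sulfotransferase, rose by 1.35, Cyp3a18 by 1.30 and Cyp2c6v1 by 1.18. The male-specific Cyp2c11 fell from 13.83 ± 0.11 to 13.04 ± 0.14 (n = 5 each). Of 7 AhR-linked genes tested, Cyp1a2 (-0.65), Nfe2l2 (-0.41) and Cyp1a1 (-0.28) fell. Cyp1a1 lost its call with medians centred (limma adjusted p = 0.0915), with the covariate (0.202) and without the raised arrays (0.247), which leaves 2 falls in all 3 fits. In the fit to all arrays limma called none as a rise (1 at an unadjusted p under 0.05). Among NRF2 targets 10 of 25 rose (40%) and 7 fell (28%), against 15.2% and 26% over all genes. With the covariate 8 rose and 4 fell. Gsta4, which conjugates lipid aldehydes, rose by 0.96, whereas the cystine carrier Slc7a11 fell by 1.31, Srxn1 by 0.76 and Gstp1 by 0.73, and Nqo1 (0.00) was not called.

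Acute phase genes fell as a group. Of 29 tested, 19 fell (15 in all 3 fits) and 2 rose, with a median of -0.51. Il1r2, the decoy receptor for interleukin-1, read 11.13, 11.13, 10.91, 11.05 and 11.14 in vehicle and 6.92, 6.50, 8.29, 5.81 and 7.21 after treatment. All but 1 treated array lay under the low-signal limit, and measured from that limit the fall was 9.2-fold (limma adjusted p = 2.79e-14). Steap4, a metalloreductase induced by cytokines, read 13.45, 13.81, 13.60, 13.94 and 13.65 against 11.04, 11.33, 11.07, 11.26 and 10.96, with vehicle replicate 4 the highest of the 10 arrays. It was 5.89-fold lower (limma adjusted p = 1.09e-18). Secreted acute phase proteins fell too: A2m by 1.34, the endotoxin-binding Lbp by 1.27, Serpina3n by 1.12, Cp by 0.98 and C3 by 0.92. The receptors Il1r1 (-1.02), Il6r (-0.90) and Il6st (-0.60) and the factor Cebpd (-0.87) were lower, and of these Il6r was not called in every fit. Not every member followed. Crp rose by 0.72 in all 3 fits and Lcn2 by 0.22 in the fit to all arrays, and haptoglobin (Hp, 0.08), Orm1 (0.07) and Hpx (-0.11) were not called.

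The share lower was 36.4% in each of the complement, clotting and chemokine lists, against 26% over all genes. In complement 8 of 22 fell and 5 rose (8 and 4 with the covariate). The falls were led by C1s (-1.25), Masp1 (-1.07) and C1r (-1.02), which start the cascade, and Mbl1 rose by 0.68. The other probe set of Masp1 (-0.26) was not called. Among clotting genes 8 of 22 fell and 2 rose (8 and 4 with the covariate). F5 (-0.81), Serpinf2 (-0.57), Fgb (-0.51) and Plg (-0.43) fell in all 3 fits, but the other probe set of Fgb (-0.10) was not called. Chemokine and NF-kB genes gave 8 of 22 lower and 3 higher (6 and 3 with the covariate). Cxcl1 (-0.82), Cxcl16 (-1.01) and Tnfaip3 (-0.83) were lower in all 3 fits, while Cxcl12 rose by 1.34 and Cxcl9 by 1.58. Of 31 interferon-induced genes 15 fell, 9 of them in all 3 fits, and limma called none as a rise (1 at an unadjusted p under 0.05, and 1 called with the covariate). Tap1, which feeds peptides to MHC class I, fell from 10.04 ± 0.16 to 9.09 ± 0.21, and Isg15 from 10.34 ± 0.10 to 9.47 ± 0.29 (n = 5 each). Mx2 fell by 0.77, and B2m (0.08) and Irf1 (-0.08) were not called.

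Cytoskeletal and junction genes fell without an exception among those called. Of 51 tested, 33 fell (24 in all 3 fits) and limma called none as a rise, with 0 also at an unadjusted p under 0.05 and 1 without the raised arrays. The median was -0.42. Vim, the intermediate filament of mesenchymal and dedifferentiating cells, read 13.60, 13.56, 13.56, 13.69 and 13.69 in vehicle and 11.86, 11.89, 11.97, 11.94 and 11.93 after treatment, 3.26-fold lower (limma adjusted p = 1.67e-16). In bulk RNA, fewer cells of a type and less RNA per cell cannot be told apart. The calcium-binding protein S100a6 (-1.59), the actin cross-linker filamin A (Flna, -1.64), the laminin Lamc1 (-1.38), N-cadherin (Cdh2, -1.18) and E-cadherin (Cdh1, -1.14) fell in all 3 fits. Flna was less changed against vehicle replicate 4 (-1.02). Actg1 (0.04), Pfn1 (0.07), Krt8 (-0.14) and Krt18 (-0.13) were not called.

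Matrix genes linked to TGF-beta and YAP gave the largest fall measured on both sides. Ccn2, a matricellular growth factor and YAP target, read 13.75, 13.70, 13.58, 13.47 and 13.52 in vehicle and 10.64, 10.51, 10.46, 10.39 and 10.26 after treatment, 8.89-fold lower (limma adjusted p = 1.19e-22). Fibronectin (Fn1) read 15.03, 15.09, 14.94, 14.80 and 14.97 against 13.71, 13.40, 13.36, 13.43 and 13.37, a log2 fall of 1.51. Both groups were compact and well separated in each gene. Of 26 list members 13 fell and 2 rose, 5 and 1 in all 3 fits. Timp3 fell by 1.34 and the cross-linking enzyme Lox by 1.08, while Id1, a BMP target, rose by 1.10. Among stellate cell markers, of 12 tested, Vim alone was called lower, and Acta2 (-0.14), Des (-0.04) and Col3a1 (0.02) were not called. Col1a1 (0.78) and Sparc (0.45) were called higher in the fit to all arrays, but not with the covariate (limma adjusted p = 0.0926 and 0.168) or without the raised arrays (0.184 and 0.507). The summed signal of these 12 was 1.85e+04 to 1.98e+04 in vehicle and 9790 to 1.105e+04 in treated cultures, a sum in which Vim weighs most. Of the 8 Kupffer and leukocyte markers tested, Cd14 alone was called, as a rise of 0.34. The summed signal of the 8 ran from 2.072e+04 to 2.31e+04 in vehicle and from 2.357e+04 to 2.561e+04 in treated cultures. Cd14 weighs most in that sum. Cd68 had means of 9.35 in vehicle and 9.27 in treated cultures, Clec4f 8.45 and 8.38, and Csf1r 8.43 and 8.65. The median difference of the 8 was 0.01, and -0.19 against vehicle replicate 4. Of the 4 endothelial markers Fcgr2b was called higher at 0.54 (sums 1487 to 1815 and 1967 to 2298), but it stood at 0.05 against vehicle replicate 4 and was not called with the covariate (limma adjusted p = 0.144). None of the 4 cholangiocyte markers was called in the fit to all arrays (sums 1.415e+04 to 1.741e+04 and 1.361e+04 to 1.572e+04). With the covariate 1 of the 4 was called lower. Their median difference was -0.10, and -0.33 against vehicle replicate 4. Krt19, left out for low signal, read 8.11 ± 0.20 in vehicle and 6.97 ± 0.50 in treated cultures. The part of other cell types in these results was not tested.

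Other large falls belonged to no single pathway. B3galnt1, a glycosyltransferase, read 12.85, 12.80, 12.72, 13.08 and 12.80 against 10.66, 10.82, 10.82, 10.88 and 10.60, a 4.28-fold fall. Rab11fip5, a vesicle traffic adaptor, fell by 1.96, and Gucy2c, the guanylin receptor, by 1.93. Npy, a neuropeptide, fell by 1.83, Ildr2 by 1.79, the AMP deaminase Ampd3 by 1.75 and Arrdc4, a glucose-responsive arrestin, by 1.74. Below the limit after treatment were LOC100912629, which fell by 1.80 measured from the limit, and Calml4, which fell by 1.46.

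**Figure D4:**
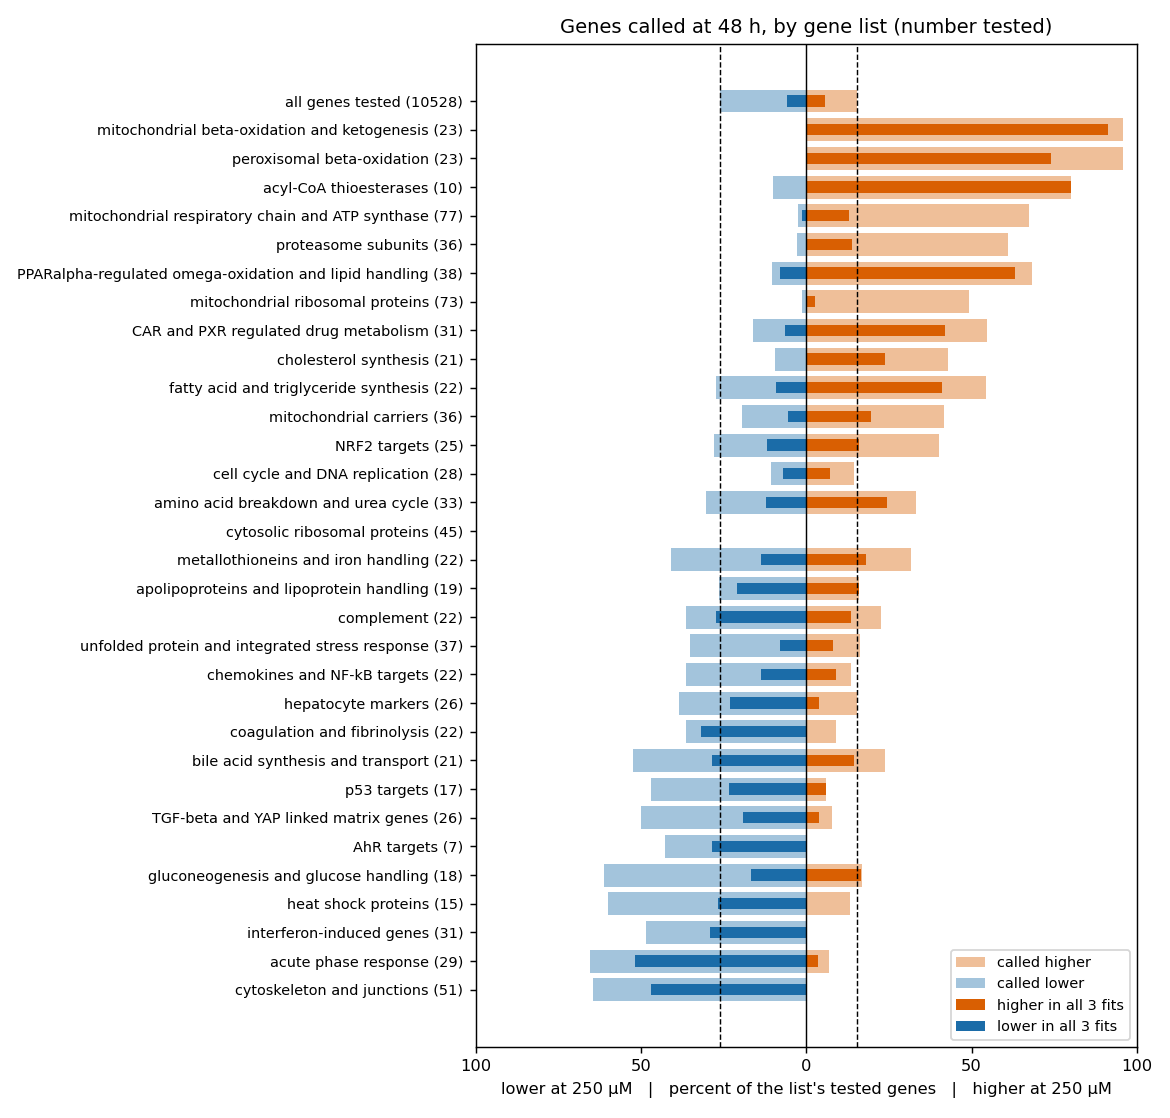
Percent of each gene list's tested members called higher (right) or lower (left) at 250 µM and 48 h (x axis), with the list and its number tested on the y axis. Pale bars are the fit to all arrays, dark bars genes called in all 3 fits, and dashed lines the shares over all genes (15.2% and 26%).

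Mitochondrial and proteasome genes rose by small amounts. Of 77 respiratory chain and ATP synthase genes 52 rose and 2 fell, with a median of 0.21, and 10 rose in all 3 fits. Uqcrc2, a core subunit of complex III, went from 14.46 ± 0.10 to 14.95 ± 0.04, and Ndufv3 of complex I from 12.89 ± 0.14 to 13.51 ± 0.05 (n = 5 each). Atp5if1, the inhibitor of ATP synthase, fell by 0.25. Of 73 mitochondrial ribosomal proteins 36 rose and 1 fell, but 2 held in all 3 fits, Mrps18a (0.90) and Mrpl49 (0.60). Of 36 proteasome subunits 22 rose, 5 in all 3 fits, led by Psma2 (0.49), and the immunoproteasome subunit Psmb10 was called lower (-0.39) in the fit to all arrays. Median differences against vehicle replicate 4 were smaller in all 3 lists: 0.12 for the respiratory chain, 0.10 for mitochondrial ribosomal proteins and 0.16 for the proteasome. Of the 45 cytosolic ribosomal proteins tested by limma none was called at an adjusted p under 0.05, and 1 had an unadjusted p under 0.05, for a rise.

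Several genes were called in the fit to all arrays but lay with the treated arrays in vehicle replicate 4. Hnf4a, the master hepatocyte factor, read 13.68, 13.40, 13.33, 12.82 and 13.40 in vehicle and 13.23, 12.79, 12.85, 12.86 and 12.84 after treatment. Its called difference of -0.41 was 0.09 against replicate 4. The growth factor Btc (0.98), the pseudogene Actr2-ps1 (1.24) and the replication licensing inhibitor Gmnn (1.07) were called as rises, yet they stood at -0.38, -0.16 and -0.28 against that array. None of these 4 was called with the beta-actin ratio as a covariate.

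Few genes were called between the doses. Between 1000 and 250 µM at 48 h, in a test that uses no vehicle array, limma called 7 of 10528 genes (0.0665%). Masp1 (0.49), Cdh2 (0.34), Cab39 (0.30) and Ints7 (1.43) were higher at 1000 µM, and Fabp1 (-0.29), Rup2 (-0.43) and Mrpl27 (-0.30) were lower. Fabp1 stood at 15.25 at 1000 µM, so its rise over vehicle was 2.36 there and 2.64 at 250 µM, both against the same vehicle arrays. For Acot1 the difference between doses was -0.50 ± 0.24 (SE; adjusted p = 0.39), for Ehhadh -0.14 ± 0.14 and for Ccn2 0.41 ± 0.10 (adjusted p = 0.098), and none of these was called. This count was set by single arrays. It was 1 without 250 µM replicate 3 or 1000 µM replicate 2, 2 without 250 µM replicate 5, 4 without 250 µM replicate 4 or 1000 µM replicates 1 or 4, 15 without 250 µM replicate 1 and 20 without 1000 µM replicate 3.

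The effect of 250 µM at 48 h was then tested against its effect at 24 h, which has vehicle arrays of its own. Of 10528 genes 880 (8.36%) differed, 404 (3.84%) with a higher and 476 (4.52%) with a lower value at 48 h. The count was 1789 without vehicle replicate 4 at 48 h, 58 with that array as the lone 48 h vehicle and 150 with array medians centred. Fabp1 had risen by 1.62 at 24 h and by 2.64 at 48 h (limma adjusted p of the difference 1.9e-11). Cyp3a2 was higher than vehicle by 0.37 and 1.82 (limma adjusted p = 1.4e-09). Its vehicle mean was 12.6 at 24 h and 10.5 at 48 h, and its treated mean was 12.97 and 12.32. A2m fell by 0.22 and 1.34 (limma adjusted p = 8.3e-07). Il1r2 differed by -0.76 at 24 h and -4.13 at 48 h (adjusted p = 6.2e-07), and S100a6 by -0.59 and -1.59 (adjusted p = 4e-07). Isg15 stood at 0.53 at 24 h and at -0.87 at 48 h (adjusted p = 2e-05). Acot1, Ehhadh and Pdk4 had differences of 7.13, 3.97 and 2.98 at 24 h, and none of these was called as differing between times.

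The counts by list are from the fit to all arrays alone. Over all genes 880 differed in that fit, and 214 of these were also called the same way with the covariate. A higher value at 48 h was found for 10 of 31 CAR and PXR linked genes. The respiratory chain had 19 of 77 and cholesterol synthesis 7 of 21. A lower value was found for 10 of 51 cytoskeletal and 7 of 29 acute phase genes. Respiratory chain genes had a median difference of 0.03 at 24 h and 0.21 at 48 h, CAR and PXR genes 0.07 and 0.26, acute phase genes -0.22 and -0.51, and interferon-induced genes -0.03 and -0.25. In peroxisomal beta-oxidation the medians were 0.91 and 0.99, and 5 of 23 genes had a higher value at 48 h: Acot8, a peroxisomal thioesterase, went from 0.91 to 1.63 (adjusted p of the difference 2.5e-05 by limma), Decr2 from 1.08 to 1.59 and Amacr from 0.02 to 0.40, with Scp2 and Pecr the others. In mitochondrial beta-oxidation 6 of 23 did so, with medians of 0.81 and 0.96.

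**Figure D5:**
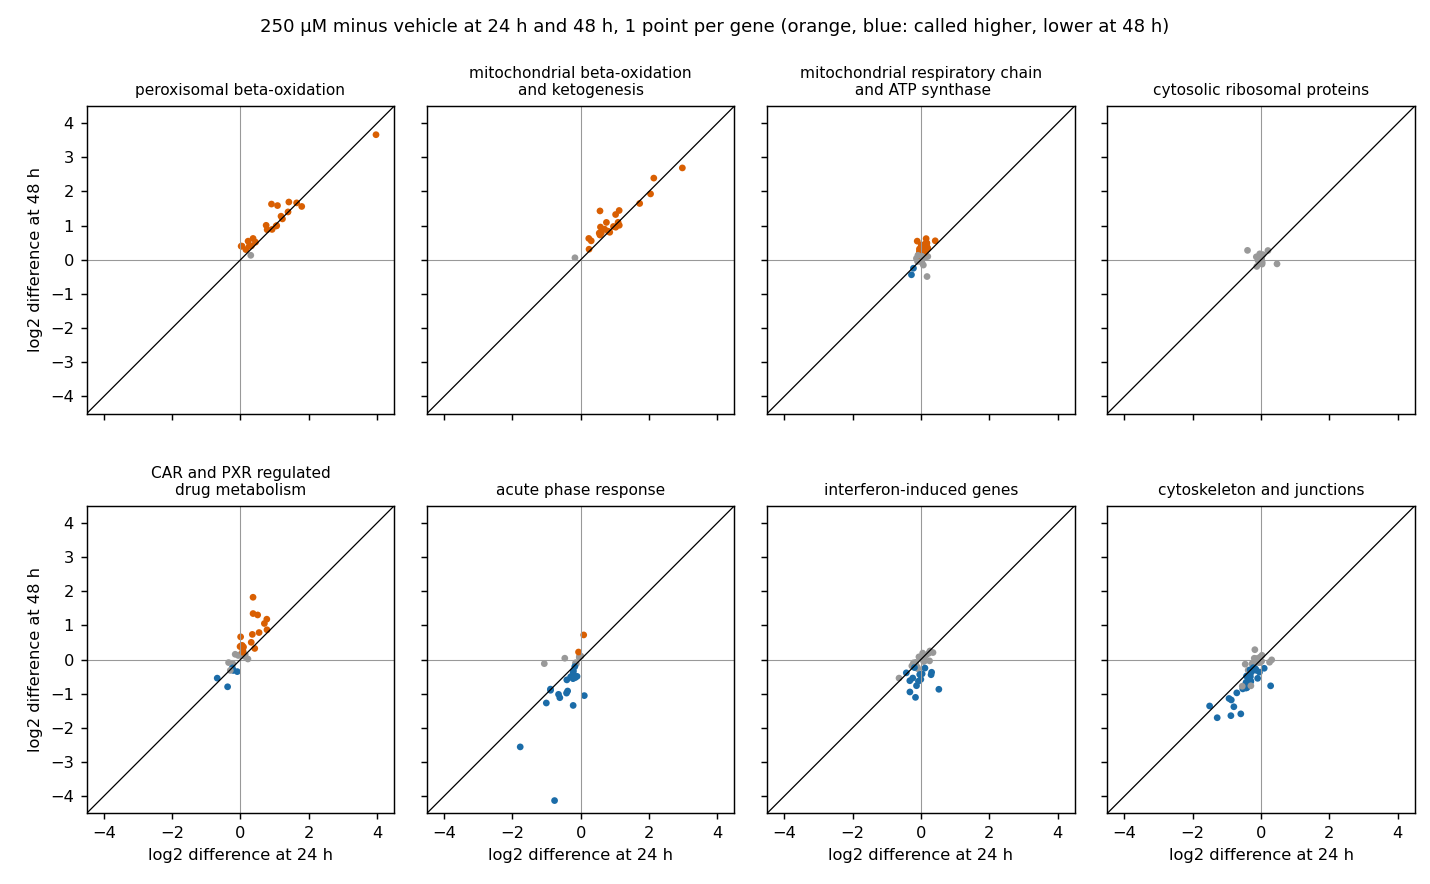
Log2 difference of 250 µM minus vehicle at 24 h (x axis) and at 48 h (y axis) for the tested members of 8 gene lists, 1 point per gene, with the line of equality; colours mark genes called at 48 h. In the fit to all arrays, 5 of 23 peroxisomal beta-oxidation genes were called higher at 48 h than at 24 h, and 7 of 29 acute phase genes lower.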

How the data were processed

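Affymetrix signals were deposited by the authors as intensity values on a linear scale, made with MAS5 per the submitters' processing notes; no source used here gives its settings. Each of the 30 arrays had a trimmed mean signal of about 1501 (2% trimmed at each end), so the arrays had been scaled to 1 target. Values were taken as log2(signal + 1). Control probe sets and the dimmest 40% of probe sets, by mean over all arrays, were left out (limit 7.88, a signal of 234), and each gene symbol kept the probe set of highest mean over all arrays. Of the probe sets, 20832 carried 1 symbol in the platform annotation, 436 several and 9774 none; 20764 matched RefSeq (GRCr8) by Entrez identifier. Promoter sequences are RefSeq's.

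A model with 1 mean per group was fitted to all 30 arrays with limma 3.58.1 (R 4.3.3; 24 residual degrees of freedom, moderated variances with a trend) and p-values were adjusted by Benjamini-Hochberg over the 10528 genes, with the limit at 0.05. Array checks used exact permutation tests (scipy 1.17.1). SD is over the 5 arrays of a group, and SE is the model's. The number of arrays limits the precision.

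Named genes were the 10 largest rises and falls among genes with separated groups and both means above the limit, the 3 largest on each side with 1 mean under it, up to 4 called members of smallest p in each list, 18 set genes, and the 5 largest differences each way by dose and time; other list members were named after their values were seen. Some set genes are not reported here. The members, the 35 gene lists and the rules were chosen with earlier results of these data known. The name patterns of the ribosomal and proteasome lists were narrowed after the data were seen, to leave out genes that are no subunits. Alternatives covered scaling, pseudocount, filter, probe set choice, variance model, the beta-actin ratio, each array left out and, added later, rounds of arrays as a block.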

Additional observations from a re-analysis of the deposited data

Results flagged for a closer look

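In 2 of 66 checks of a lead gene within a group, 1 array lay far from the other 4, where chance gives about 5% of such groups. Both were vehicle replicate 4 at 48 h: Gucy2c read 12.13 there and 12.52 to 12.59 on the other vehicle arrays, and Arrdc4 read 11.98 against 12.35 to 12.43.

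For the other genes the effect of 250 µM differed between 48 h and 24 h by the model's test of that difference, given here as the log2 change at 48 h minus that at 24 h. Among genes that rose, the difference was 1.13 for Spc24, 1.02 for Fabp1, 1.45 for Cyp3a2, 1.27 for Cxcl9, 1.45 for Btc, 1.44 for Tdh and 1.35 for Actr2-ps1, and it was -0.44 for Cyp4a1, whose rise was the larger at 24 h. Among genes that fell it was -3.36 for Il1r2, -1.51 for Prrc2a, -1.40 for Isg15, -1.35 for Npy, -1.27 for Ints7, -1.21 for Tbccd1, -1.07 for Arrdc4, -0.96 for Ildr2, -0.79 for Steap4, -0.73 for Gucy2c and -0.42 for Vim. Btc and Actr2-ps1 rest on the 48 h vehicle arrays with a raised beta-actin ratio.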

How the results depend on the processing

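The 4342 genes called at 48 h stayed within 1.5 times that count when scaling, pseudocount, filter, probe set choice and variance model were changed. The count fell to 2782 with the beta-actin ratio as a covariate, to 1380 without the vehicle arrays of raised ratio, and to 3034, 2381, 2650 and 2194 with vehicle replicate 1, 2, 3 or 5 alone; without 1 array it ran from 3979 to 4683. For the 880 genes that differed between times the counts were 150 with array medians centred, 248 with the covariate, 58 without the raised arrays, and 1165, 383, 570 and 336 with vehicle replicate 1, 2, 3 or 5 alone, and without 1 array from 609 to 1789. For the 7 genes that differed between doses the counts were 3 with only the compared arrays sharing the spread, 2 with medians centred and 3 with the mean over probe sets, and without 1 array from 1 to 20. Without the raised arrays, Fasn turned to 0.00425, Btc to -0.382 and Actr2-ps1 to -0.16. Of 145 named and called genes, 7 lost the call with the covariate and 15 without the raised arrays. The cause was not tested. Of 1316 called genes with several probe sets, 501 had another called the same way and 93 one called the opposite way. The titles number the arrays in 5 rounds of the 6 groups, and the labels do not say what a round shares. With the rounds as a replicate block, an alternative chosen after seeing the data, the counts were 4450, 7 and 1041, and no named and called gene lost its call. Deviations of same-round vehicle and 250 µM arrays at 48 h correlated at -0.03 to 0.20, and not every array correlated best with its own round.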

Other observations

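Spc24, a kinetochore subunit, rose from 10.19 ± 0.24 to 13.83 ± 0.07 (n = 5 each), a 12.5-fold rise. Of the other 27 tested cell cycle genes 3 rose and 3 fell. With Spc24, 14.3% of the list rose and 10.7% fell, against 15.2% and 26% over all genes. Of the other 27, Ccnd1 rose by 0.95, and Ccne2 (-0.37) and Myc (-0.50) fell, each in all 3 fits. The p53 target Cdkn1a fell by 0.77 in the fit to all arrays and by 0.27 against vehicle replicate 4. Its other probe set (-0.06) was not called. The kinetochore partners of Spc24, Spc25 (-0.19) and Nuf2 (-0.22), were not called. In the p53 list 8 of 17 fell, 4 of them in all 3 fits, among them Sesn1 (-1.31) and Ccng1 (-1.10), and Gadd45a rose by 0.71. The other probe set of Sesn1 (0.09) was not called. In the p53 list 47.1% were lower and 5.88% higher, against 26% and 15.2% over all genes.

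Small heat shock genes fell: Cryab by 0.93, Hspb1 by 0.55 and Hspb8 by 0.43, among 9 of 15 heat shock genes lower and 2 higher (4 and 0 in all 3 fits). The other probe set of Hspb8 (-0.10) was not called. Of the 15 heat shock genes 60% were lower and 13.3% higher, against 26% and 15.2% over all genes. The unfolded protein response showed no common direction, with 13 of 37 lower (35.1%) and 6 higher (16.2%), against 26% and 15.2% over all genes. With the covariate 8 of its genes were lower and 5 higher, and its chaperone Hspa5 (-0.02) was not called. Of 36 mitochondrial carriers 15 rose (41.7%) and 7 fell (19.4%), against 15.2% and 26% over all genes. With the covariate 8 rose and 5 fell. Slc25a42, which imports coenzyme A, rose by 1.82 and the carnitine and acylcarnitine carrier Slc25a20 by 1.09. Among iron and metal genes 7 of 22 rose (31.8%) and 9 fell (40.9%), 5 and 4 with the covariate. The iron-sensing aconitase Aco1 rose by 0.92 and the metallothionein Mt1 (0.04) was not called. The zinc and iron importer Slc39a14 fell by 0.88, but its other probe set (-0.13) was not called. Of 26 hepatocyte markers 10 fell (38.5%) and 4 rose (15.4%), 8 and 2 with the covariate. Fetuin (Ahsg) stood at -0.87 and the asialoglycoprotein receptor subunit Asgr1 at 0.85.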
